A study of Mus musculus with 62 samples.

Results

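The genes described here are the lysophosphatidic acid acyltransferases *Agpat1*, *Agpat2*, *Agpat3*, *Agpat4* and *Agpat5*, the related acyltransferase *Lclat1*, and *Bscl2*, which encodes seipin. They are 7 of the 48795 genes in the count table, found by matching Ensembl identifiers to gene symbols, and all 7 had enough counts to be tested in every comparison below. The list was chosen by the counts of *Agpat2*, which were higher in fat of *Fam13a* knockout (KO) males than in fat of wild-type (WT) males, and the other members were added to see whether that difference was shared. The members' values for KO against WT in male fat are therefore given as a description, without a test, and their tests rest on female fat, liver, diet, depot and sex. *Bscl2* had also been called in SAT of both sexes together in earlier work on these counts, so its female SAT values are not independent of that choice.

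Glycerolipids are built by adding fatty acids to glycerol 3-phosphate. Glycerol-3-phosphate acyltransferases make lysophosphatidic acid, AGPAT enzymes add another fatty acid to give phosphatidic acid, lipins remove the phosphate, and diacylglycerol acyltransferases complete triglyceride, the lipid that fat cells store. Loss of *AGPAT2* or *BSCL2* in people causes congenital generalized lipodystrophy, in which adipose tissue is nearly absent, so these genes are known as requirements for fat storage.

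*Agpat2* (ENSMUSG00000026922.13, GRCm38 chromosome 2, 26593057 to 26604417, minus strand) encodes the AGPAT enzyme best known from fat and liver. *Agpat1* (ENSMUSG00000034254.17, chromosome 17, 34604262 to 34613449, plus strand) encodes a broadly expressed enzyme of the endoplasmic reticulum that carries out the same reaction. *Agpat3* (ENSMUSG00000001211.14, chromosome 10, 78269178 to 78352489, minus strand), *Agpat4* (ENSMUSG00000023827.8, chromosome 17, 12118704 to 12219645, plus strand) and *Agpat5* (ENSMUSG00000031467.10, chromosome 8, 18846277 to 18891361, plus strand) encode further family members, of which AGPAT5 lies at mitochondria. *Lclat1* (ENSMUSG00000054469.13, chromosome 17, 73107985 to 73243368, plus strand) encodes an enzyme that remodels cardiolipin and phosphatidylinositol. *Bscl2* (ENSMUSG00000071657.12, chromosome 19, 8837467 to 8848683, plus strand) is no acyltransferase: seipin sits where lipid droplets meet the endoplasmic reticulum and shapes droplet growth. Genes on the opposite strand share 18.9% of the exon bases of *Agpat5* (*Gm35934*), 6.75% of *Bscl2* (*Gng3*), 3.37% of *Agpat1* (*Egfl8*) and 3% of *Agpat2* (*Egfl7*). Libraries were stranded, but which strand setting gave the counts is not given in the sources used here, so the *Agpat5* counts are the least certain of the 7.

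*Agpat2* and *Bscl2* moved together from library to library in fat, as shown further on, and the 250 bases before their start sites are printed for that reason. RefSeq places them at chr2:26604418-26604667 on the minus strand and chr19:8837217-8837466 on the plus strand of GRCm38.p6. Capitals mark the GC boxes of *Agpat2* and the CCAAT boxes of *Bscl2*.
Agpat2: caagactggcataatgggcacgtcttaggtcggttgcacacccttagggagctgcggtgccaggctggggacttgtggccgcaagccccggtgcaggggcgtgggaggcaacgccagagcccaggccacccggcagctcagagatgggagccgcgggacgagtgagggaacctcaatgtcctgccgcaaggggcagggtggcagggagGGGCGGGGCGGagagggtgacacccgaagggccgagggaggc
Bscl2: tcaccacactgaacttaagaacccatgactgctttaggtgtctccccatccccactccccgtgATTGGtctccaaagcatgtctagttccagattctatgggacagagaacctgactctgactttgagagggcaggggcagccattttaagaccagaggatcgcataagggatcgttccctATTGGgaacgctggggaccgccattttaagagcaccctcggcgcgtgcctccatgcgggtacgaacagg
The *Agpat2* stretch had a GC content of 69.2% with 16 CpG dinucleotides, and the *Bscl2* stretch 54.0% with 10. In *Agpat2*, the GC box GGGCGG occurred 2 times, at -42 and -37 from the start site, and these matches overlap. In *Bscl2*, the CCAAT box occurred 2 times on the reverse strand (ATTGG), at -187 and -69. Of 32851 promoters of this length, 32.7% held a GC box and 33.8% a CCAAT box. The search covered both strands and also the direct repeat bound by PPAR-RXR, its half-site AGGTCA, the C/EBP site TTGCNNAA, the TATA box TATAAA and the E-box CACGTG, which were in neither stretch and in 0.0335%, 14%, 9.56%, 12.4% and 6.02% of promoters. The stretches shared no motif of this search.

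The counts came from 62 bulk RNA-seq libraries of C57BL6 mice in 16 groups set by sex, diet, tissue and genotype. Male WT and KO mice on chow (18% of calories from fat) and on a high-fat diet (HFD, 45% of calories from fat) gave visceral fat (VAT, the gonadal depot), subcutaneous fat (SAT, the inguinal depot) and liver, and female WT and KO mice on HFD gave VAT and SAT. Each group held 4 libraries, except WT females with 3 per depot. KO mice descend from KOMP embryonic stem cells with exon 5 of *Fam13a* between loxP sites. The study calls the loss whole-body, and no Cre driver is named. HFD was fed from 8 weeks of age for 14 weeks, and the age of the mice on chow in these libraries is not given in the sources used here.

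The gene counts of a library summed to 4959783 to 28723319 reads (median 21694089), of which ribosomal RNA took between 0.0127% and 75.4%, with 6 libraries above 25%. *Fam13a* itself averaged lower in KO than in WT in every pairing of sex, diet and tissue, but counts over the whole gene remained in KO, and the ranges were apart in 3 of these 8 pairings only. Fat libraries held all 8 adipocyte markers above 1 TPM at the median, and liver libraries all 8 hepatocyte markers. Chow libraries ran on lanes 1 to 3 and HFD libraries on lanes 4 to 8 of a flow cell, with 2 HFD libraries of males on another flow cell, so diet and lane cannot be told apart. In fat on HFD, no female library shared a lane with a male library, so sex and lane cannot be told apart either. The labels do not link libraries to mice, and replicate numbers here only name the libraries of a group. SAT and VAT libraries may come from the same mice, in which case the p-values of tests that take both depots as separate libraries (KO in female fat, and sex) are too small. P-values measure the spread between these libraries, and in whole tissue fewer cells of a type cannot be told apart from less RNA per cell.

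*Agpat2* was the most abundant member in all 3 tissues. In TPM, a transcript level scaled by exon length and library total, its median was 220 in SAT (76.8 to 618 over 23 libraries), 236 in VAT (69.7 to 511 over 23) and 116 in liver (91.6 to 150 over 16). Within each library it stood above the next member without exception, *Bscl2* in fat and *Agpat3* in liver. *Bscl2* followed in fat with medians of 66.8 TPM in SAT and 69.6 in VAT, but reached 10.2 TPM in liver.

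*Agpat3* was at 38.9 TPM in SAT, 41.7 in VAT and 51.3 in liver. *Agpat1*, at 27.4 TPM in SAT and 36.4 in VAT, was at 3.84 TPM in liver. *Lclat1* had medians of 16.8, 18 and 24.1 TPM in SAT, VAT and liver. *Agpat4* and *Agpat5* were the lowest members in fat, at 6.7 and 4.48 TPM in SAT and 7.17 and 5.43 in VAT. Their order was not fixed, since *Agpat4* was higher in 22 of 23 SAT libraries and 17 of 23 VAT libraries. In fat, the ranges of all neighbours in the order overlapped between libraries. In liver, the ranges of *Agpat2*, *Agpat3*, *Lclat1* and *Bscl2* did not overlap from each to the next, while *Agpat1*, *Agpat5* (1.55 TPM) and *Agpat4* (0.567 TPM) ran into each other. *Agpat4* had counts in all liver libraries except a KO library on chow, where it was at 0. Fat and liver were normalized separately and no test of fat against liver was made.

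**Figure D1:**
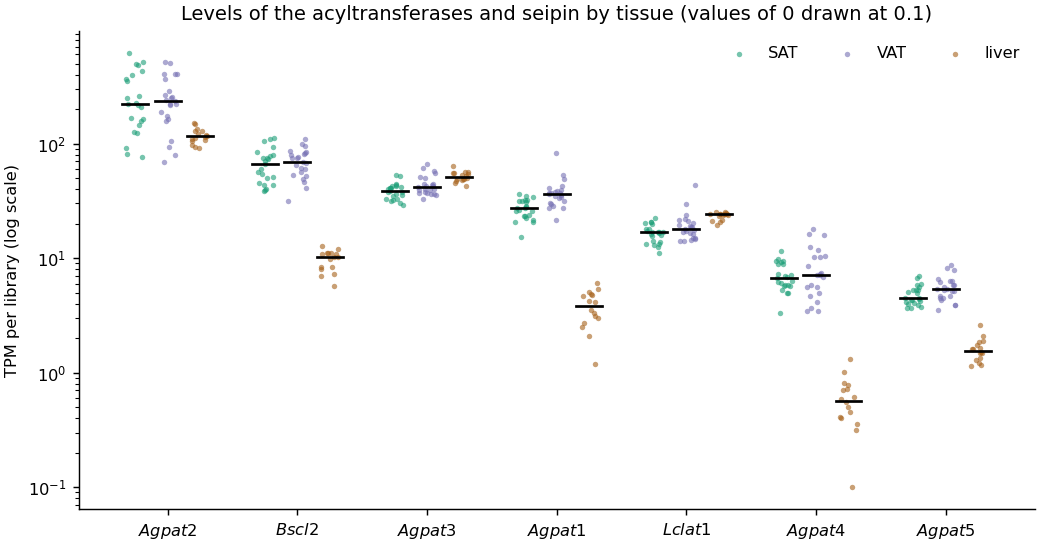
Level of each member in TPM per library on a log axis, by tissue (SAT and VAT 23 libraries each, liver 16), with the median as a black line and a value of 0 drawn at 0.1. *Agpat2* leads in each tissue, while *Bscl2*, *Agpat1*, *Agpat4* and *Agpat5* lie lower in liver than in fat.

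In fat of males, *Agpat2* was 2.11-fold higher in KO than in WT over 32 libraries, a log2 fold change of 1.07 (standard error, SE, 0.19) with diet and depot in the model. This is the difference that put it on the list. In SAT of males on chow, the KO libraries had 211, 166, 404 and 138 CPM (reads scaled to the normalized library size) and the WT libraries 63.9, 58.3, 54.5 and 116, means of 230 and 73.3. Every KO library lay above every WT library there. In SAT of males on HFD, the KO libraries had 473, 299, 358 and 266 CPM and the WT libraries 90.1, 193, 156 and 182, again with no overlap. Of all genes, 8.53% lay entirely higher in KO in SAT on chow and 6.47% in SAT on HFD.

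VAT of males gave smaller and overlapping differences. On chow, the KO libraries had 81.8, 128, 137 and 196 CPM of *Agpat2* and the WT libraries 120, 44.1, 126 and 53.7, a 1.58-fold difference of means. On HFD they had 327, 289, 183 and 264 CPM against 77, 217, 148 and 145, a 1.81-fold difference. The KO mean was higher in each of the 4 male groupings of diet and depot, which the choice of *Agpat2* had used.

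**Figure D2:**
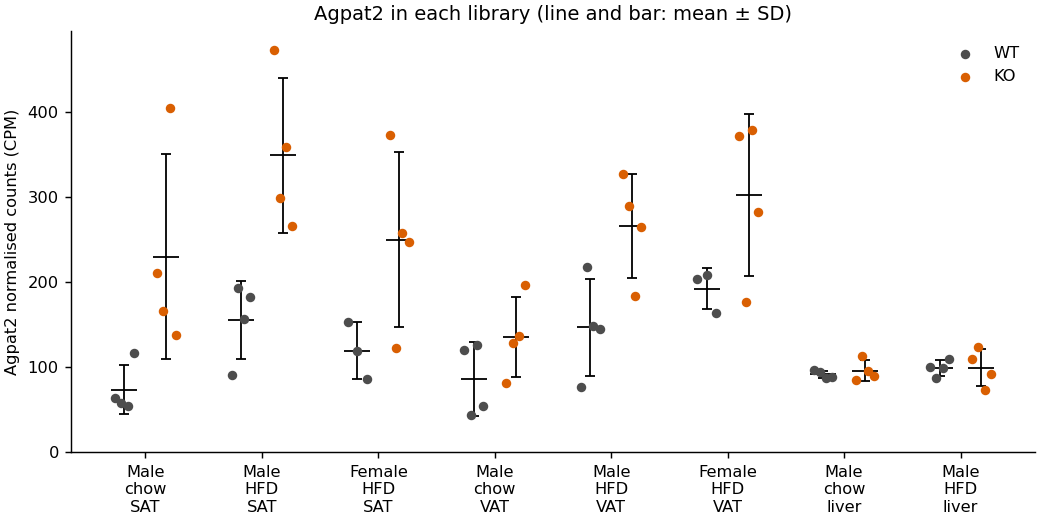
*Agpat2* in CPM for each library of WT (grey) and KO (orange) mice, with the mean and SD, by sex, diet and tissue. KO libraries lie above all WT libraries in SAT of males on both diets, and their range overlaps that of WT in the other fat groups and in liver.

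For the other members, the same contrast in male fat gave log2 fold changes of 0.23 for *Bscl2* (SE 0.13), 0.23 for *Agpat3* (0.10), 0.16 for *Agpat1* (0.13), 0.14 for *Lclat1* (0.12), 0.12 for *Agpat5* (0.07) and -0.13 for *Agpat4* (0.14). *Agpat2* was chosen for its value in this contrast, so its place above the other members here was set in advance. The median of the 7 was 0.16, against -0.03 over all 18561 genes tested, of which 3.97% were called at a false discovery rate of 10% and 2.62% were called higher. *Bscl2* in SAT of males on HFD ran from 179 to 235 CPM in KO and from 137 to 174 in WT, without overlap, and in SAT on chow from 107 to 170 against 72.4 to 113. In VAT on chow its mean was lower in KO (105 against 122 CPM). *Agpat1* lay entirely higher in KO in SAT of males on both diets and *Agpat3* in SAT of males on chow. The same held for 8.53% of all genes in SAT on chow and 6.47% in SAT on HFD. In SAT of males on chow, KO means were 1.58-fold those of WT for *Agpat3* and *Bscl2* and 1.45-fold for *Agpat1*. They were 1.12-fold for *Agpat5*, 1.07-fold for *Lclat1* and 0.79-fold for *Agpat4*, against 3.14-fold for *Agpat2*.

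As a share of the TPM of the 6 acyltransferases, *Agpat2* made up 80.9% ± 3.45 (SD, n = 4) in SAT of KO males on HFD and 67.8% ± 8.82 (n = 4) in WT. On chow, the shares in SAT were 72.8% ± 7.63 in KO and 55% ± 9.6 in WT. In VAT of males they were 76.1% against 60.4% on HFD and 58.7% against 49.5% on chow, and in females on HFD 76.5% against 63.4% in SAT and 78.1% against 69.8% in VAT.

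Markers of other cells moved with genotype in SAT on chow. There, the mean log2 CPM of 8 adipocyte markers ran from 9.05 to 9.75 in KO and from 8.14 to 9.05 in WT. That of 10 lymph node markers (such as *Cd79a* and *Ms4a1*, with *Ccl21a* at 0) ran from -0.91 to 5.07 in KO and from 3.92 to 5.54 in WT. With the adipocyte score in the model the log2 fold change of *Agpat2* in male fat was 0.93 (SE 0.18), and with the lymph node score it was 0.98 (0.20). The score of 6 brown or beige markers ran from 0.43 to 2.57 in KO and from -0.33 to 0.85 in WT. The library at 2.57, KO replicate 1, also had a skeletal muscle score of 10.34, against 5.27 at most in the others of SAT on chow. At the median of SAT libraries these markers ran from 0.333 TPM (*Dio2*) to 88.9 TPM (*Cox8b*), with 4 of 6 above 1 TPM. In SAT on HFD, where *Agpat2* was also apart, the adipocyte scores ran from 8.85 to 9.37 in KO and from 9.04 to 9.22 in WT, and the macrophage scores (7 markers) from 5.6 to 7.21 in KO and from 5.16 to 5.87 in WT. The fits with the adipocyte and lymph node scores took male fat of both depots and diets, in the contrast that chose *Agpat2*. The part of any of these scores in the *Agpat2* difference in SAT was not tested.

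Female fat was not used to choose *Agpat2*. In SAT, the KO females had 373, 122, 257 and 247 CPM of *Agpat2* and the WT females 153, 119 and 85.9, means of 250 and 119. In VAT, the KO females had 371, 176, 379 and 282 CPM and the WT females 204, 208 and 164, means of 302 and 192. In each depot 3 of the 4 KO libraries lay above all WT libraries, and KO replicate 2 lay among them. In SAT that library had a lymph node score of 4.68, against 0.25 at most in the other SAT libraries of females, and the lowest adipocyte score (8.95), while WT replicate 2 of SAT had a skeletal muscle score of 8.18, against 1.73 at most in the others. Over the 14 libraries, with depot in the model, the log2 fold change was 0.83 (SE 0.23, 95% interval 0.34 to 1.32), a 1.78-fold difference with an unadjusted p of 0.0026 in edgeR's quasi-likelihood test. It did not pass the adjustment over all genes (adjusted p = 0.21), in a comparison where 0.0848% of genes were called, 15 of 17685, and 2200 genes had an unadjusted p under 0.05. This fit takes the depots as separate libraries, so its SE, interval and p-values are too small if SAT and VAT came from the same mice. With the sequencing lane in the model, which overlaps with genotype in SAT of females (all KO on lane 8 and 2 of 3 WT on lane 7), the log2 fold change was 0.95 (SE 0.32, adjusted p = 1). DESeq2 gave 0.83 with an adjusted p of 0.03, and edgeR called the difference with the adipocyte score (0.95, adjusted p = 0.07) or the lymph node score (1, adjusted p = 0.054) in the model, so the call depended on the tool and on the covariates. Taken by depot, edgeR gave 1.05 in SAT (SE 0.34, adjusted p = 0.88) and 0.62 in VAT (SE 0.24, adjusted p = 0.76), neither called. The difference passed edgeR's test without SAT KO replicate 2, at 0.92 (adjusted p = 0.069), and in no other fit that left out 1 library.

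With depot as the covariate, 0 of 7 members were called in female fat by edgeR, where *Agpat2* was the 1 member with an unadjusted p under 0.05 and the 1 member that DESeq2 called. *Bscl2* had a log2 fold change of 0.26 (SE 0.15, adjusted p = 0.52), with 177, 81.4, 121 and 138 CPM in KO SAT against 93, 103 and 104 in WT. *Agpat4* was at 0.15, *Agpat5* at 0.11, *Lclat1* at 0.07, *Agpat3* at -0.03 and *Agpat1* at -0.13, with standard errors of 0.07 to 0.14. The 95% interval of *Agpat1* ran from -0.31 to 0.06 and that of *Agpat3* from -0.17 to 0.12, both below the lower bound of *Agpat2*.

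**Figure D3:**
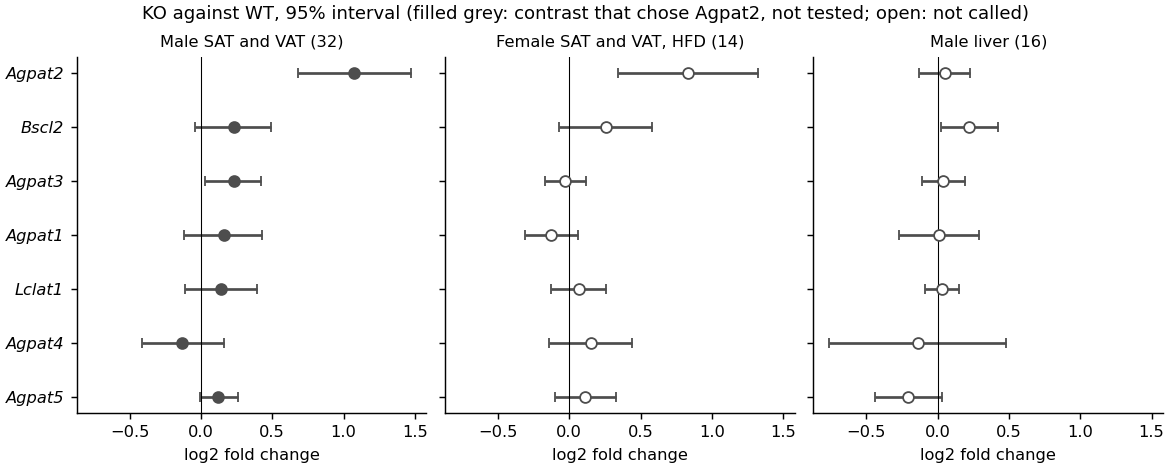
Log2 fold change of KO against WT for each member, with its 95% interval, in male fat (32 libraries, untested description), female fat (14) and male liver (16). *Agpat2* lies at 1.07 and 0.83 in fat of males and females and at 0.05 in liver, and open symbols mark values that were not called.

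Whether *Agpat2* moved apart from the other members was tested on the ratio of *Agpat2* to each of them within a library, by an exact two-sided permutation test of genotype within depot (1225 arrangements, adjusted over 12 ratios). In female fat all 6 ratios were higher in KO than in WT over the libraries of both depots, which this test takes as separate. The ratios share *Agpat2* and the same libraries, so they are not 6 independent results, and lane overlaps with genotype in SAT here as well. The log2 ratio to *Agpat1* was 0.90 higher (3.01 in KO and 2.11 in WT, exact p = 0.0057, adjusted p = 0.024) and that to *Agpat3* 0.80 higher (adjusted p = 0.039). For *Lclat1* the difference was 0.71, for *Agpat5* 0.66 and for *Bscl2* 0.56, each at an adjusted p of 0.024 in the exact test, and for *Agpat4* 0.63 (adjusted p = 0.049). The adjusted p of the *Agpat4* ratio rose to 0.10, past the threshold, without VAT WT replicate 3 (difference 0.57), and no other of these 6 ratios lost its call when a library was left out. Within each depot all 6 ratios were also higher in KO, by 0.68 to 1.06 in SAT and 0.32 to 0.74 in VAT, but none passed the adjustment. The exact permutation test gave p of 0.057 to 0.086 in SAT and 0.057 to 0.34 in VAT, where the smallest p that 35 arrangements allow is 0.029. If both depots came from the same mice, only 35 arrangements would hold over both depots too, and the adjusted p-values over both depots are too small. The ratio to *Bscl2* had the smallest difference over both depots. In male fat the corresponding differences, as a description, were between 0.85 for *Bscl2* and 1.21 for *Agpat4*.

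Liver of males showed no *Agpat2* difference of that size. On chow, the KO libraries had 84.9, 113, 94.9 and 89.4 CPM and the WT libraries 96, 94, 87.5 and 88.7. On HFD they had 109, 123, 72.5 and 92.2 against 100, 87.2, 98.6 and 110. The log2 fold change was 0.05 (SE 0.08, 95% interval -0.13 to 0.23, adjusted p = 0.89 in edgeR's test), and whether the KO effect differed between liver and fat was not tested. None of the 7 members was called (*Bscl2* was the 1 with an unadjusted p under 0.05), nor was any of 14476 genes (0%) by edgeR, although 1416 had an unadjusted p under 0.05 and DESeq2 called 91, no member among them. *Agpat2* made up 57.9% to 60% of acyltransferase TPM in the 4 liver groups.

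*Bscl2* in liver had a log2 fold change of 0.22 (SE 0.10, unadjusted p = 0.036, adjusted p = 0.47). *Agpat5* was at -0.21 (SE 0.11, adjusted p = 0.56), and on chow its KO libraries, 5.35 to 6.18 CPM, all lay below the WT libraries, 6.87 to 9.85, as 2.04% of genes did. In the exact permutation test within diet (4900 arrangements) only the ratio of *Agpat2* to *Agpat5* differed in liver, 0.30 higher in KO on the log2 scale (p = 0.015, adjusted p = 0.035). The other 5 ratios had differences of -0.17 to 0.30 with adjusted p of 0.23 to 0.91.

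HFD against chow in males was a comparison the list was not drawn from. In SAT, 5 of the 7 members were called higher on HFD, where 58% of all genes tested were called and 28.5% were called higher. *Agpat2* rose by a log2 fold change of 0.82 (SE 0.25, adjusted p = 0.014), from 54.5 to 116 CPM in WT on chow to 90.1 to 193 in WT on HFD, ranges that overlap. *Bscl2* rose by 0.66 (SE 0.11, adjusted p = 0.00045), and its WT libraries, 84.2, 82.9, 72.4 and 113 CPM on chow, all lay below the 137, 144, 154 and 174 CPM on HFD, as for 25.4% of genes. *Agpat5* rose by 0.38 (adjusted p = 0.00083) and *Lclat1* by 0.34 (adjusted p = 0.00065). *Agpat1* passed by a small margin at 0.20 (adjusted p = 0.066), and its call held without 7 of the 16 libraries taken out in turn. *Agpat4* was at 0.21 (adjusted p = 0.30) and *Agpat3* at 0.00 (95% interval -0.20 to 0.20). The lymph node scores of the WT libraries on chow, given above, were higher than in 3 of 4 WT libraries on HFD, and with that score in the model *Agpat2* was at 0.70 (adjusted p = 0.14), *Agpat1* at 0.04 (adjusted p = 0.84) and *Bscl2* stayed called.

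In VAT, 3 members were called higher and 1 lower on HFD, with 44.2% of genes called, 21% higher and 23.2% lower. *Agpat4* was 2.04-fold higher on HFD, a log2 fold change of 1.03 (SE 0.17, adjusted p = 0.00034), from 3.4, 7.33, 6.7 and 4.79 CPM in KO and 3.23, 6.78, 5.37 and 6.14 in WT on chow to 10.4, 10.4, 12.7 and 10.5 in KO and 12.3, 10.4, 12.9 and 13.9 in WT on HFD. No HFD library overlapped with a chow library, as for 5.88% of genes. *Agpat2* rose by 0.78 (SE 0.26, adjusted p = 0.029) and *Agpat5* by 0.41 (adjusted p = 0.014). *Agpat3* fell by 0.35 (adjusted p = 0.074), a call that held without only 4 of the 16 libraries. *Bscl2* was at 0.29 (adjusted p = 0.26), *Lclat1* at -0.23 (adjusted p = 0.44) and *Agpat1* at -0.06 (adjusted p = 0.87).

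Macrophage markers rose with HFD in these VAT libraries as a list. The mean log2 CPM of 7 markers (*Adgre1*, *Cd68*, *Csf1r*, *Mrc1*, *Trem2*, *Gpnmb* and *Itgax*, none at 0 at the median) ran from 7.37 to 9.09 on HFD and from 4.59 to 6.52 on chow, and 8 adipocyte markers from 7.53 to 8.86 on HFD and from 8.58 to 9.95 on chow. With the macrophage score in the model, which separates the diets entirely, neither *Agpat4*, at 0.72 (SE 0.47), nor *Agpat2*, at 0.79 (0.83), was called. With the adipocyte score in the model, *Agpat2* and *Agpat4* stayed called in VAT. Over 9 other settings, *Bscl2* ran from 0.11 to 1.04 and *Lclat1* from -0.81 to 0.16. Their smallest adjusted p there, over edgeR and DESeq2 fits, were 0.011 and 0.034, so not every setting left them uncalled.

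In liver, *Agpat1* was higher on HFD by a log2 fold change of 0.58 (SE 0.13, adjusted p = 0.0022) and *Bscl2* by 0.38 (SE 0.10, adjusted p = 0.0047), 2 of 7 members, where 40.8% of genes were called and 20.6% were called higher. *Bscl2* ran from 22.8 to 28.9 CPM over the HFD libraries and from 13.4 to 24.7 over the chow libraries. *Agpat1* was low in liver, at 4.51 to 6.32 CPM in WT on HFD and 3.25 to 4.49 in WT on chow. *Agpat2* was at 0.08 (95% interval -0.10 to 0.25, adjusted p = 0.53).

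**Figure D4:**
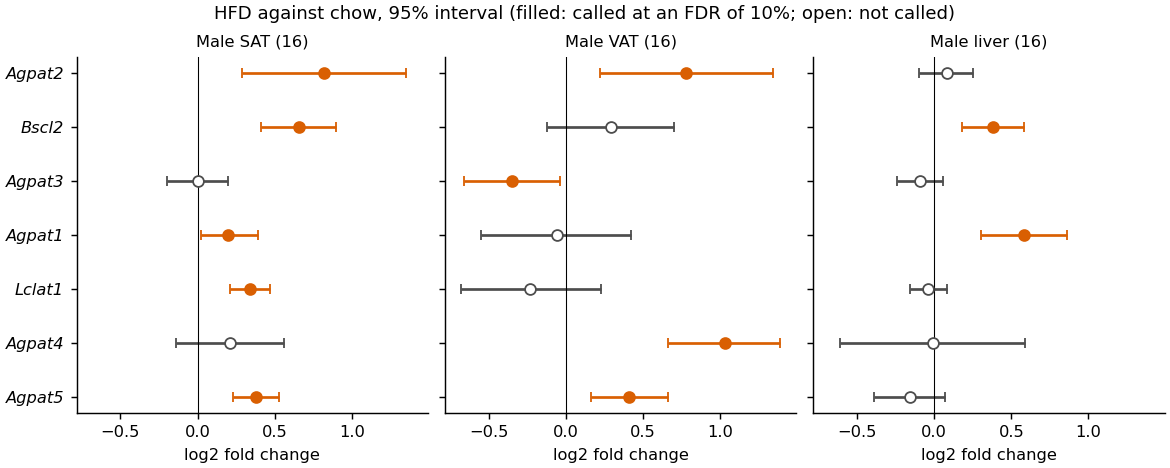
Log2 fold change of HFD against chow for each member in male SAT, VAT and liver (16 libraries each), with 95% intervals and filled symbols for calls at a false discovery rate of 10%. *Agpat2* is called in SAT and VAT at 0.82 and 0.78, *Agpat4* reaches 1.03 in VAT, and *Agpat1* and *Bscl2* are called in liver.

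The effect of diet was compared between the depots by the interaction of diet and depot over 32 libraries. *Agpat4* differed, with an effect in VAT that exceeded the effect in SAT by 0.83 on the log2 scale (SE 0.24, adjusted p = 0.01), and *Lclat1* differed by -0.55 (SE 0.23, adjusted p = 0.07). These were 2 of 7 members, 1 in each direction, where 35.1% of genes were called, 17.5% higher and 17.6% lower in VAT. *Agpat2* was at 0.01 (95% interval -0.78 to 0.80) and *Bscl2* at -0.36 (adjusted p = 0.31). The *Lclat1* value rested on a KO library of VAT on chow, replicate 1, with 77.4 CPM against 25.6 to 28.5 in the other 3. Without it the difference was -0.28 (adjusted p = 0.11). Epididymis markers had mean log2 CPM of 4.26 in this library and 5.50 in WT replicate 2 (43.3 CPM of *Lclat1*), against 0.40 at most in all other libraries of VAT on chow, and without this pair the *Lclat1* difference was -0.15 (adjusted p = 0.27). The *Agpat4* call was kept in 32 of 32 fits that left out a library, and lost with the adipocyte (0.45), lymph node (0.69) or macrophage score (0.41) in the model.

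Between depots, VAT exceeded SAT for *Agpat1* by a log2 fold change of 0.46 (SE 0.09, adjusted p = 0.00021), *Lclat1* by 0.23 (adjusted p = 0.05), *Agpat5* by 0.20 (adjusted p = 0.0095) and *Agpat3* by 0.17 (adjusted p = 0.034), over 46 libraries of both sexes and diets. These were 4 of 7 members, with 41.8% of genes called and 23.3% called higher in VAT. *Agpat2* was at -0.05 (95% interval -0.37 to 0.28) and *Bscl2* at 0.07 (-0.16 to 0.30). Without the pair of libraries with epididymis markers, *Lclat1* was at 0.09 (adjusted p = 0.11). On chow each depot had a lane to itself, so depot and lane cannot be told apart there.

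On HFD, females were lower than males for *Agpat4* by 0.72 on the log2 scale (SE 0.12, adjusted p = 4.9e-05), *Agpat5* by 0.20 (adjusted p = 0.034) and *Lclat1* by 0.12 (adjusted p = 0.094), over 30 fat libraries. These were 3 of 7 members, with 37.5% of genes called and 18.4% called lower in females. Sex and lane cannot be told apart in these libraries. In VAT, *Agpat4* ran from 3.88 to 6.52 CPM in females and from 10.4 to 13.9 in males, without overlap (6.06% of genes lay entirely lower in females), and in SAT from 4.44 to 7.59 against 5.93 to 9.88. The macrophage scores of the same VAT libraries were 4.82 to 6.49 in females and 7.37 to 9.09 in males, and with the adipocyte score in the model *Agpat4* was at -0.31 (adjusted p = 0.11). *Agpat2* was at -0.05 (95% interval -0.39 to 0.30) and *Bscl2* at -0.20 (adjusted p = 0.22). Over 9 other settings, *Agpat2* ran from -0.54 to 0.29. Its smallest adjusted p there, over edgeR and DESeq2 fits, was 0.061, so not every setting left it uncalled. The call of *Lclat1* held without 14 of the 30 libraries taken out in turn. Taken by depot, *Agpat4* was lower in females in VAT (-1.15, adjusted p = 2.7e-05) and not called in SAT (-0.30, adjusted p = 0.13). *Agpat5* was called in SAT (-0.27, adjusted p = 0.026) and not in VAT, and *Lclat1* in neither. *Bscl2* was lower in females in SAT (-0.61, adjusted p = 0.0027) and at 0.21 in VAT (adjusted p = 0.22), and these differences between depots were not tested.

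Across the 46 fat libraries, after the mean of each group was removed, *Bscl2* followed *Agpat2* with a Pearson correlation of 0.83 and ranked 35 of 19872 genes. The other acyltransferases did not come near this value, with correlations of 0.39 for *Agpat3*, 0.33 for *Agpat5*, 0.14 for *Agpat1*, -0.11 for *Lclat1* and -0.23 for *Agpat4*. *Agpat1* and *Agpat3* followed each other at 0.81. The 5 genes most like *Agpat2* were *Tmem120a* (0.92), *Acsl1* (0.91), which encodes an acyl-CoA synthetase, *Arxes2* (0.91), *Dlat* (0.90), a subunit of pyruvate dehydrogenase, and *Mrap* (0.90), an accessory protein of the melanocortin receptors. The adipocyte score followed *Agpat2* at 0.60 and *Bscl2* at 0.69, the epididymis score followed *Lclat1* at 0.75, and the macrophage score followed *Agpat5* at 0.48. These are descriptions over libraries that share tissue, diet and sequencing run, and they carry no test.

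**Figure D5:**
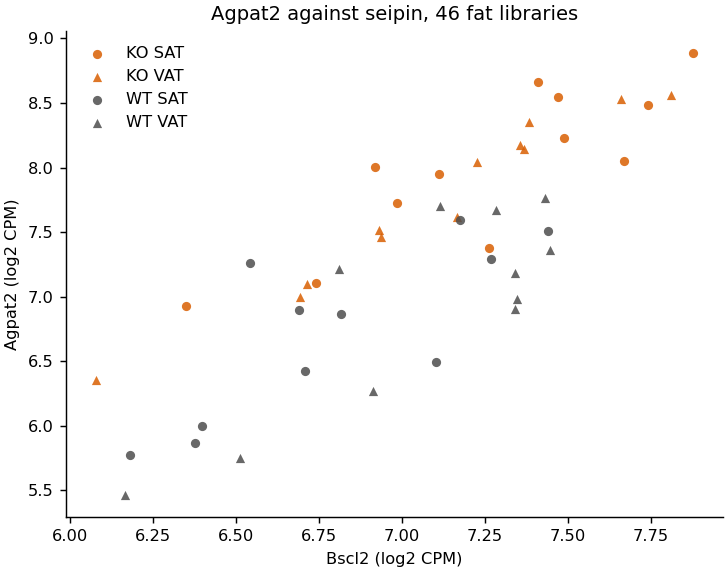
*Agpat2* against *Bscl2* in log2 CPM for the 46 fat libraries, by genotype (colour) and depot (symbol). Both rise together in WT and KO, and at a given level of *Bscl2* most KO libraries lie above the WT libraries, as in the log2 ratio of *Agpat2* to *Bscl2* (0.81 in KO and 0.26 in WT females).

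Around these enzymes, 15 other genes of glycerolipid synthesis, 9 other lysophospholipid acyltransferases, 14 other lipodystrophy genes and 2 partners of seipin were followed. With KO in male fat, where 2.62% of all genes were called higher, the same was true of 2 of 14 tested glycerolipid genes, *Dgat2* (0.70, SE 0.20), which makes triglyceride from diacylglycerol, and *Mogat2* (1.28, SE 0.37), which acylates monoacylglycerol. Of the 9 other acyltransferases *Lpgat1* was called higher (0.66, SE 0.20), and of the lipodystrophy genes and seipin partners none. This contrast also chose *Agpat2*, and the lists were drawn up with earlier results of these data known, so these calls are no independent support. These calls were not stable: with 1 library left out in turn, 23 of 32 fits kept at least 2 glycerolipid genes and 7 had none, and *Lpgat1*'s list kept 1 call in 18 of 32. Of the 9 other settings, 4 left no glycerolipid gene and 5 no other acyltransferase. The medians of these lists were 0.31, 0.01, 0.09 and 0.06, against -0.03 over all genes. In female fat and in liver no gene of the 4 lists was called with KO by edgeR.

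With HFD in SAT, where 28.5% of all genes were called higher and 29.6% lower, 8 of 14 tested glycerolipid genes were called higher and 4 lower, among them *Dgat2* (1.73), *Gpd1* (1.21), which makes glycerol 3-phosphate, *Cds1* (1.17), which draws phosphatidic acid off to phospholipids, *Lpin3* (0.92) and *Gk* (0.55), all higher. In VAT, against 21% and 23.2% of all genes, 4 were called higher and 5 lower, with *Dgat2* (1.26) and *Gpd1* (1.19) higher and *Mogat1* (-1.97), *Gpat3* (-1.46) and *Gpam* (-1.06), the glycerol-3-phosphate acyltransferase of mitochondria, lower. The median of the list was 0.33 in SAT and -0.50 in VAT. By the interaction test, 7 of its 14 genes had a lower diet effect in VAT than in SAT, where 17.6% of all genes did. They were led by *Cds2* (-0.71, adjusted p = 0.01) and *Mogat1* (-1.46, adjusted p = 0.013). A higher effect was called for 1 gene of the list, *Lpin2* (0.53), and for 17.5% of all genes. These counts were not stable. With 1 library left out in turn, the 7 lower interaction effects became 4 to 8, and 10 of 32 fits kept at least 7. Over 9 other settings they ran from 0 to 7. In SAT the 8 higher became 6 to 8 and the 4 lower 1 to 4 with libraries left out, and in VAT the 5 lower became 4 to 7. *Agpat2* rose with HFD in both depots by 0.82 and 0.78, and *Dgat2* and *Gpd1* of the glycerolipid list rose by more in both. The list as a whole had a median above 0 in SAT and below 0 in VAT.

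The partners of seipin were called lower on HFD where they were called. *Adig*, adipogenin, was lower on HFD in SAT (-0.53, adjusted p = 0.008) and VAT (-1.30, adjusted p = 0.00017), and *Tmem159*, which encodes the lipid droplet assembly factor that binds seipin, was lower in VAT (-0.72, adjusted p = 0.0025) and liver (-0.42, adjusted p = 0.081). In females on HFD, *Adig* was higher than in males (0.69, adjusted p = 2.6e-05), as was *Tmem159* (0.19, adjusted p = 0.079). The *Tmem159* call in liver was absent in 8 of 16 fits that left out a library and in 2 of 5 other settings. Both calls in females were kept in 18 of 30 fits that left out a library and in 4 of 9 other settings. Of 14 other lipodystrophy genes, 5 were called higher and 1 lower with HFD in SAT (58% of all genes were called there, 44.2% in VAT and 40.8% in liver), led by *Cav1* (1.93) and *Lmna* (0.84), and of 13 tested in VAT 5 higher and 5 lower, led by *Pcyt1a* (0.65) and *Lmna* (0.94). In liver, against 20.6% and 20.2% of all genes, 8 of 12 tested were called higher and 2 lower, led by *Lipe* (0.66) and *Pparg* (1.18).

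Among the 9 other lysophospholipid acyltransferases, 3 were called higher and 6 lower with HFD in SAT, where 28.5% and 29.6% of all genes were. *Mboat2* (1.56) and *Lpgat1* (1.86) rose the most there, while *Taz*, tafazzin, which remodels cardiolipin, fell by 0.42. In VAT, where 44.2% of all genes were called, 3 were called higher, led by *Lpgat1* (1.34), and 2 lower, *Taz* (-0.61) and *Mboat1* (-2.48). *Lpcat2*, known from inflammatory cells, rose in VAT by 0.70 (adjusted p = 0.018), and its diet effect in VAT exceeded that in SAT by 1.80 (adjusted p = 0.0032).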

How the data were processed

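Per the labels and the methods of the study, reads of stranded TruSeq libraries were aligned with STAR to GRCm38 (mm10) with Gencode M11, and the authors deposited raw gene counts, not normalized. The submitters' processing notes name STAR 2.5.3a. The covariates of the study's model (RNA quality, time to extraction, hidden factors) were not used here. Groups came from the labels of the libraries, all 62 of which were assigned. No libraries of a group were near-identical: over 90 pairs within groups, the chi-square statistic per gene was at least 9.69. Gene symbols and merged exon lengths were taken from GENCODE M21 on GRCm38 by Ensembl identifier, and 99.3% of genes had a symbol. Promoters came from RefSeq (GRCm38.p6).

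In R 4.3.3, counts were normalized by TMM, filtered by filterByExpr and tested with edgeR 4.0.16 (quasi-likelihood, Benjamini-Hochberg over all genes, false discovery rate of 10%). Standard errors (SE) were obtained from each fold change and its F statistic. CPM were normalized within the 46 fat and the 16 liver libraries, log2 CPM had a prior count of 2, and TPM left out the ribosomal RNA gene *CT010467.1*. Marker scores were mean log2 CPM. The covariates were diet and depot (male fat), depot (female fat), diet (liver), genotype (diet comparisons), sex with diet and genotype (depot), and depot and genotype (sex). Simulated libraries with 200 changed genes were used to check the fits: of genes changed 2-fold, 41.1% (interaction) to 94.1% (liver KO) were recovered, and unchanged genes made up at most 11.2% of calls.

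The genes named were the 7 members, *Fam13a*, the called genes of each of 4 lists with the smallest p (at most 5 per comparison) and the 5 genes most like *Agpat2*. Members and lists were chosen with earlier results of these data known. Alternatives were DESeq2 1.42.0, DESeq2's size factors, no low-count filter, marker scores, ribosomal RNA share or lane as covariates, a prior count of 0.5 for ratios, the ribosomal RNA gene in the TPM sum, and leaving out libraries. The libraries with over 25% of ribosomal RNA, the pair with epididymis markers, the lymph node and macrophage scores, and single depots (KO in females, sex) were chosen as alternatives after seeing the data.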

Additional observations from a re-analysis of the deposited data

Results flagged for a closer look

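Of 98 groups of 4 libraries and members, 6 held a library farther from the others than Dixon's limit for 4 values, where chance gives about 1 in 20 groups. *Lclat1* was at 77.4 CPM in KO replicate 1 of VAT of males on chow, against 25.6 to 28.5 in the others, the library with an epididymis score of 4.26. *Agpat1* was at 1.32 CPM in liver KO replicate 3 of males on HFD, against 5.41 to 6.23, where it rests on 2 reads in the library with 75.4% of ribosomal RNA. *Agpat2* was at 116 CPM in WT replicate 4 of SAT of males on chow, against 54.5 to 63.9, still below all KO libraries of that group. *Agpat3* was at 178 CPM in liver WT replicate 1 of males on HFD, against 145 to 149. *Agpat4* was at 12.7 CPM in KO replicate 3 of VAT of males on HFD, against 10.4 to 10.5. *Agpat5* was at 14.3 CPM in KO replicate 2 of SAT of females, against 19.4 to 20.1, the library that also had the lowest *Agpat2* and *Bscl2* of its group.

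The effect of HFD differed between VAT and SAT by the interaction test for *Agpat4* (0.83 on the log2 scale) and *Lclat1* (-0.55). The *Lclat1* difference was -0.15 without the pair of VAT libraries with epididymis markers.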

How the results depend on the processing

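No paired analysis was possible because the labels carry no replicate numbers and do not link the tissues of a mouse; the numbers used here only name libraries. Across the members' alternatives, the log2 fold change of *Agpat2* in male fat ran from 0.93 to 1.12, and from 0.96 to 1.15 with libraries left out in turn. In female fat *Agpat2* was called by DESeq2 (0.83) and with the adipocyte (0.95) or lymph node score (1) in the model, which made 1 member called in place of 0, and it ran from 0.70 to 0.93 with libraries left out (0 to 1 members called). With HFD in SAT 3 members were called with the lymph node score in place of 5, and in VAT 0 with the macrophage score in place of 4. For the interaction, 1 member in place of 2 was called without the low-count filter, with the adipocyte score, without the other flow cell or without the libraries rich in ribosomal RNA, 0 with the lymph node or macrophage score, and 1 to 3 with libraries left out. The cause was not tested.

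Signs changed for values near 0 or with marker scores. In female fat *Agpat3* was 0.00 with the adipocyte score, 0.04 with lane and -0.06 to 0.01 with libraries left out. With HFD in SAT *Agpat3* was -0.02 (DESeq2, its size factors, ribosomal RNA share), -0.01 (no filter, adipocyte score), -0.18 (lymph node score) and -0.05 to 0.04 with libraries left out, and *Agpat4* was -0.02 with the macrophage score. In VAT *Agpat1* was 0.03 without the filter, 0.02 without the libraries rich in ribosomal RNA and -0.23 to 0.07 with libraries left out, *Lclat1* 0.16 without the pair with epididymis markers and -0.29 to 0.05, and the macrophage score gave 1.29 (*Agpat1*), 0.31 (*Agpat3*), -0.41 (*Agpat5*) and 0.14 (*Lclat1*). In liver *Agpat4* was 0.01 without the filter and -0.11 to 0.09 with libraries left out, and *Agpat1* with KO -0.03 to 0.06. For the interaction the lymph node score gave 0.12 (*Agpat1*), the macrophage score 0.34 (*Agpat1*), 0.11 (*Agpat3*) and -0.27 (*Agpat5*), the adipocyte score 0.42 (*Bscl2*), and *Agpat2* was -0.18 without the epididymis pair and -0.25 to 0.17 with libraries left out. Between depots *Agpat2* was 0.03 without the other flow cell or the epididymis pair and -0.09 to 0.03 with libraries left out, and between sexes *Agpat1* was 0.02 without the other flow cell and -0.05 to 0.06, and *Agpat2* -0.10 to 0.02.

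In females by depot, the ratios of *Agpat2* to *Agpat1*, *Agpat3*, *Agpat4*, *Agpat5*, *Lclat1* and *Bscl2* were 1.06, 0.95, 0.93, 0.74, 0.82 and 0.68 higher in KO in SAT (adjusted p = 0.15 in the exact test) and 0.74, 0.64, 0.32, 0.59, 0.60 and 0.43 in VAT (0.21 to 0.46), each no longer called. By depot, KO in females gave 0.03 for *Agpat3* in SAT and -0.02 for *Agpat5* and *Lclat1* in VAT, and 1 gene in all was called in either depot. Females against males gave -0.01 for *Agpat3* in SAT and 0.04, 0.29 and 0.21 for *Agpat1*, *Agpat2* and *Bscl2* in VAT, where 1 member was called in place of 3. With libraries left out, the ratio of *Agpat2* to *Agpat4* in females ran from 0.50 to 0.75, and in liver the ratios ran from 0.08 to 0.36 (*Agpat1*), -0.08 to 0.05 (*Agpat3*), -0.07 to 0.54 (*Agpat4*), -0.03 to 0.04 (*Lclat1*) and -0.24 to -0.11 (*Bscl2*). Counts of all genes called also moved. With KO in male fat they were 736, and 338 without the filter, 1320 by DESeq2, 282 without the other flow cell, 250 without the libraries rich in ribosomal RNA and 135 with the lymph node score. In female fat they were 15, and 487, 36, 1 and 392 by DESeq2 and with the adipocyte score, lane and lymph node score. In liver they were 0, and 39 without the filter, 91 by DESeq2 and 3 without the libraries rich in ribosomal RNA. With HFD in SAT 10036 became 4354 with the lymph node score, in VAT 7653 became 4634 with the adipocyte and 0 with the macrophage score, and for the interaction 6522 became 2240, 2298 and 880 with the adipocyte, lymph node and macrophage scores. Depth limits *Agpat4* and *Agpat1* in liver, which rest on few reads in the libraries rich in ribosomal RNA.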

Other observations

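Sex and diet also moved genes at other steps of glycerolipid synthesis. In fat on HFD, females were higher than males for *Gpat3* (log2 fold change 1.27, adjusted p = 1.8e-06 in edgeR's test), *Gpam* (0.71), *Mogat2* (0.69) and *Dgat1* (0.49), and lower for *Gk* (-0.30), while *Agpat2* was at -0.05. In liver, HFD went with higher *Mogat1* (1.61), *Dgat2* (0.97) and *Gpam* (0.36) and lower *Gk* (-0.78) and *Gpat4* (-0.30), while *Agpat2* was at 0.08. VAT exceeded SAT for *Mogat2* (1.12), *Gk* (1.01), *Cds1* (0.66), *Gpam* (0.39) and *Lpin1* (0.37). These were the called genes of that list, 5 of 15 tested, with none lower. Of all genes, 23.3% were called higher in VAT and 18.5% lower.

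In VAT of WT males on HFD, replicate 4 had 71.6 CPM of *Agpat1* and 150 CPM of *Agpat3*, the highest values of either gene in VAT of males on HFD, where the other libraries had at most 42.6 and 108 CPM. The score of 6 brown or beige markers followed *Agpat2* at 0.58 across the 46 fat libraries, and that of 8 mammary epithelium markers followed *Lclat1* at 0.55. The genes in these paragraphs other than those of the lists were chosen after their values were seen.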
